A study of Homo sapiens with 15 samples.

Results

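MDA-MB-468, an established cell line from a triple-negative breast carcinoma, was exposed to medium conditioned by human monocyte-derived macrophages (CM), and its transcripts were compared with those of unstimulated MDA-MB-468 cells. By cell line and treatment, 8 of the 15 samples in the series belonged to this comparison, 4 with CM and 4 unstimulated; the other 7 were MDA-MB-231 cells, 3 with CM and 4 unstimulated. The macrophages had first been primed with medium from MDA-MB-231 or MDA-MB-468 cells. The text deposited with the series gave 24 h of incubation and the study's legend a shorter exposure, so the time is not settled. Transcripts were measured by real-time PCR on a 96-well array of 84 genes linked to tumor metastasis, 5 housekeeping genes and 7 control wells.

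The values were ratios of 1 CM sample over 1 control sample, and 3 such comparisons could be assigned to MDA-MB-468, over controls numbered 2, 3 and 4. The headers carried CM sample number 3 in 2 of the 3 comparisons, so these may share a CM sample. The headers also named the control of the MDA-MB-468 comparisons as MDA-MB-231 cells, while the labels held an unstimulated group of each line. As headed, the comparisons of both lines would share controls 2, 3 and 4. CDKN2A, known to be deleted in MDA-MB-231, had ratios of 1.22, 1.18 and 0.534 in the MDA-MB-468 comparisons over controls 2, 3 and 4. Each lay below the ratio of the reverse transcription control wells in the same comparison, 2.04, 1.36 and 0.895. In the MDA-MB-231 comparisons CDKN2A had ratios of 1.22, 2.93 and 1.69, equal to those of the same wells over controls 2 and 4. Whether these wells lay at the detection limit is not known from ratios. CDH1, the epithelial cadherin, had ratios of 2.10, 2.48 and 0.749. RB1, known to be lost in MDA-MB-468 and present in MDA-MB-231, had ratios of 0.106, 0.0819 and 0.0510. Which line served as control could not be settled, so an effect of CM and a difference between lines cannot be told apart in any ratio below, and raised or lowered means relative to the control as deposited. Each ratio was set relative to ACTB, GAPDH, HPRT1 and RPLP0, so that 1 means a change equal to that of these 4 reference genes.

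Macrophages in solid tumors release cytokines, growth factors and proteases, and tumor cells that receive these signals can alter their own programs of adhesion, matrix breakdown and migration. Matrix metalloproteinases cut collagens and other matrix proteins, cadherins and integrins hold cells to each other and to the matrix, and chemokines direct the movement of cells. Metastasis suppressors are genes whose loss favors spread without a need for a larger primary tumor.

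The comparison over control 4 stood apart from the others. The median ratio of the 84 target genes was 1.39 over control 2 and 1.41 over control 3, but 0.567 over control 4. Over control 4, 59 of the 84 genes lay below 1, against 15 over control 2 and 17 over control 3. The MDA-MB-231 comparisons had medians of 1.32, 1.16 and 1.29. The positive PCR control, whose template is independent of the sample, was also lowest over control 4 in each of its 3 wells, with ratios of 2.39, 1.33 and 0.494 in well H10. In MDA-MB-231 it had ratios of 1.10, 1.06 and 1.73 in well H10, of 1.69, 1.55 and 1.84 in well H11, and of 1.25, 1.13 and 1.55 in well H12. Its part in the lower ratios over control 4 was not tested. In the plot of all target genes by comparison, the cloud was lower over control 4, while the mean of the 4 reference genes is 0 in every comparison by construction.

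**Figure D1:**
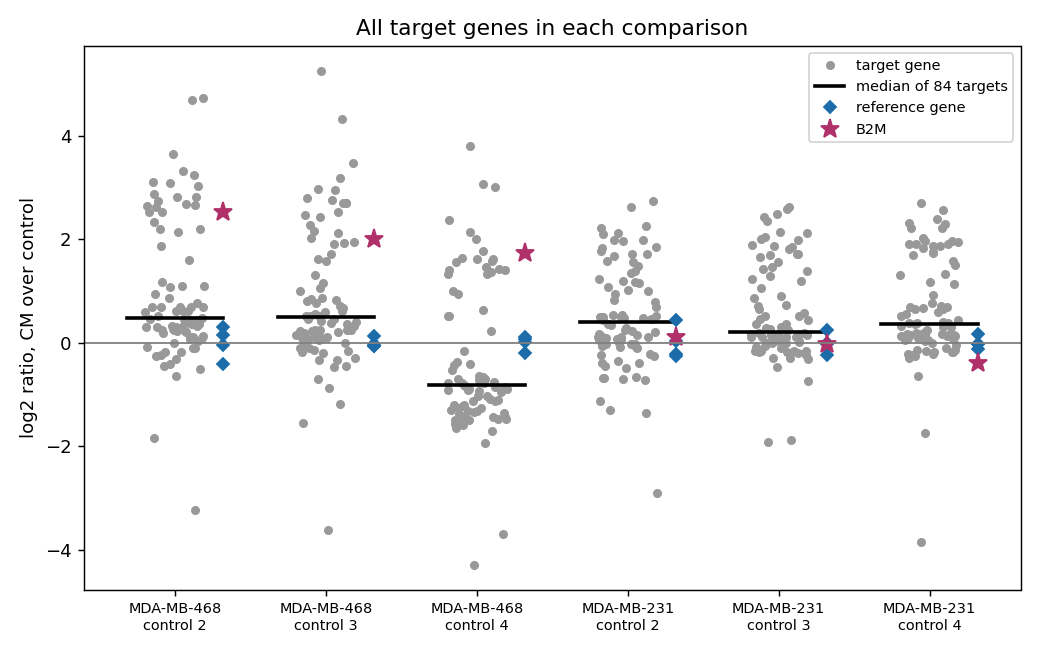
Log2 ratios of CM over control for the 84 target genes (grey points, spread sideways at random) in each of the 6 comparisons, with their median (black bar), the 4 reference genes (blue diamonds) and B2M (star). The median of MDA-MB-468 over control 4 is -0.82, and those over controls 2 and 3 are 0.47 and 0.49.

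After CM, 23 of the 84 target genes (27.4%) were raised in MDA-MB-468, defined as a geometric mean ratio over 2 with every comparison above 1. Another 3 genes (3.57%), RB1, SMAD4 and CD82, were lowered, with a geometric mean under 0.5 and every comparison below 1. The geometric means of the raised genes ran from 2.51 for NR4A3 to 24.0 for IGF1, with a median of 4.90. The remaining 58 genes had geometric means between 0.598 and 1.98. Of the 23 raised genes, 19 had their lowest ratio over control 4, yet 20 of the 23 were above 2 even there. With limma on the log2 ratios, a test chosen after seeing the data, all 23 raised genes (27.4%) passed an adjusted p of 0.05, as did RB1 and SMAD4 (2.38%), whereas CD82 did not (adjusted p = 0.105). Without the comparison over control 4, 43 genes passed as higher and all 3 lowered genes, CD82 included, as lower. This test treats the 3 comparisons as independent, which the shared sample number leaves unsettled. It also used a spread common to all genes rather than each gene's own.

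**Figure D2:**
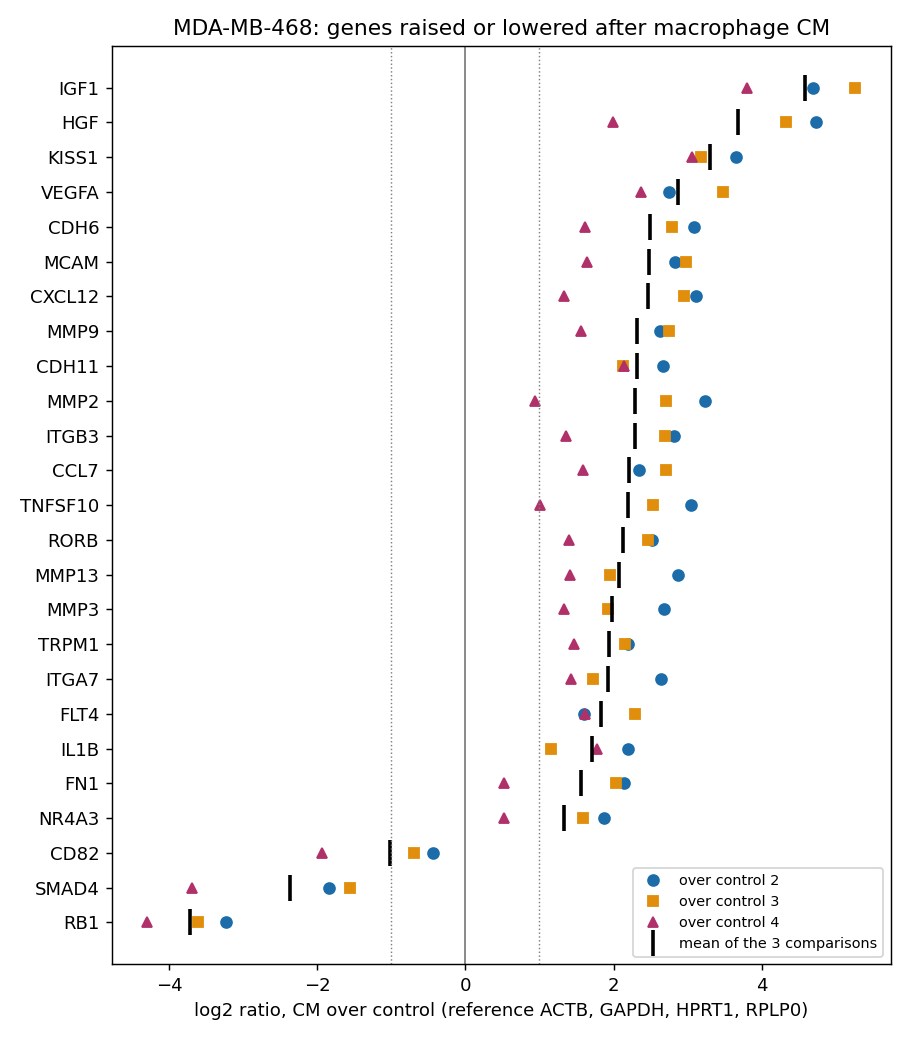
Log2 ratio of CM over control in MDA-MB-468 for 25 genes that were raised or lowered, with 1 symbol for each comparison and a black bar for their mean. Dotted lines mark ratios of 2 and 0.5. Most triangles, the comparison over control 4, lie to the left of the other symbols.

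The growth factors IGF1 and HGF had the highest geometric means, 24.0 and 12.8, followed by KISS1 with 9.82. IGF1, the ligand of the insulin-like growth factor receptor, had ratios of 25.8, 38.3 and 13.9 over controls 2, 3 and 4. Its mean log2 ratio was 4.58 (95% interval 3.65 to 5.52, from a spread common to all genes), with an SD of 0.73 over its own comparisons. HGF, the ligand of the receptor kinase MET, had ratios of 26.4, 20.1 and 3.99, so its size rested on the first 2 comparisons while its direction held in all 3. VEGFA, which drives the growth of blood vessels, had ratios of 6.71, 11.2 and 5.19. FLT4, a receptor for vascular endothelial growth factors of the lymphatic system, had ratios of 3.02, 4.87 and 3.06. These 4 were the raised genes among 7 growth factors and receptor kinases (57.1%, beside 27.4% of all 84 genes), and the list had a median geometric mean of 3.56, beside 1.01 for all 84 genes. The receptors MET, FGFR4 and EPHB2 were neither raised nor lowered, with geometric means between 0.733 and 0.978. MET, the receptor of HGF, had ratios of 1.62, 1.05 and 0.551, and the difference between HGF and MET was not tested.

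Of the 7 matrix metalloproteinases, 4 were raised (57.1%, against 27.4% of all 84 genes), and the list had a median geometric mean of 3.94. MMP9, a gelatinase, had ratios of 6.19, 6.74 and 2.95. MMP2, the other gelatinase, had ratios of 9.42, 6.53 and 1.92. MMP13, a collagenase, had ratios of 7.32, 3.88 and 2.65, and MMP3, a stromelysin, had ratios of 6.43, 3.80 and 2.50. All comparisons of these 4 genes lay above 1, and MMP2 varied most among them. MMP7, MMP10 and MMP11 had geometric means from 1.01 to 1.13 and passed neither call. MMP7, MMP10, MMP3 and MMP13 lie in this order on chromosome 11 in the RefSeq annotation, with genes not on the array left out of the order. In MDA-MB-231 all 4 of them were raised by the same rule.

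TIMP2, TIMP3 and TIMP4, which inhibit metalloproteinases, were neither raised nor lowered. TIMP2 had ratios of 1.15, 1.10 and 0.586, TIMP3 of 0.706, 0.813 and 0.428, and TIMP4 of 0.932, 3.76 and 0.892. With all 5 housekeeping genes as reference, and by limma after centering on the median of the target genes, TIMP3 was called lowered. These inhibitors belonged to a list of 9 protease inhibitors, other proteases and genes of plasminogen control. Of the list, 1 was raised (11.1%, against 27.4% of all 84 genes), and its median geometric mean was 0.964. The median ratios of the list were 1.17, 1.35 and 0.570 over controls 2, 3 and 4.

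Among 8 chemokines, cytokines and their receptors, 4 were raised (50%, against 27.4% of all 84 genes), with a list median of 2.04. CXCL12, the ligand of CXCR4, had ratios of 8.62, 7.73 and 2.52. CCL7, which attracts monocytes, had ratios of 5.07, 6.55 and 3.00. TNFSF10, a death receptor ligand also called TRAIL, had ratios of 8.22, 5.80 and 2.00. All of these ratios lay above 1, with the lowest over control 4. IL1B, an inflammatory cytokine, had ratios of 4.57, 2.22 and 3.41. The receptors CXCR2 and CXCR4, with IL18 and TGFB1, had geometric means between 0.840 and 1.28.

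KISS1 encodes the precursor of the kisspeptin peptides and was first known as a metastasis suppressor. It had ratios of 12.5, 9.06 and 8.34 (SD 0.31 on the log2 scale, and 0.60 when each comparison was centered on the median of its target genes). Its receptor KISS1R had ratios of 5.79, 3.06 and 0.437, so the comparisons disagreed in direction. Its geometric mean of 1.98 also lay below the limit of 2, and KISS1R was not called. RORB, an orphan nuclear receptor, had ratios of 5.75, 5.51 and 2.64. TRPM1, a cation channel, had ratios of 4.57, 4.47 and 2.77. NR4A3, an orphan nuclear receptor of the early response type, had ratios of 3.66, 3.01 and 1.44, the smallest change among the raised genes. In all, 4 of these 8 hormones, receptors and channels were raised (50%, against 27.4% of all 84 genes), with a list median of 2.23.

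CDH6 and CDH11 encode classical cadherins of mesenchymal and renal tissues. CDH6 had ratios of 8.45, 6.93 and 3.06, and CDH11 had ratios of 6.34, 4.37 and 4.41. MCAM, an adhesion molecule of the immunoglobulin family, had ratios of 7.09, 7.86 and 3.13. These 3 of 7 genes of cell-cell adhesion were raised (42.9%, against 27.4% of all 84 genes), with a list median of 1.57. The median ratios of the list were 2.14, 2.48 and 0.749 over controls 2, 3 and 4. CDH1 was not called, with a geometric mean of 1.57 and its comparison over control 4 below 1. Of 7 integrins, matrix proteins and matrix receptors, 3 were also raised (42.9%), with a list median of 1.02, close to the 1.01 of all 84 genes. The median ratios of this list were 1.43, 1.44 and 0.547 over controls 2, 3 and 4. ITGB3, the beta chain of a vitronectin receptor, had ratios of 7.04, 6.50 and 2.57. ITGA7, a laminin receptor chain, had ratios of 6.26, 3.30 and 2.69. FN1, fibronectin, had ratios of 4.43, 4.08 and 1.44. The other 4 members, CD44 included, had geometric means between 0.656 and 1.02.

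**Figure D3:**
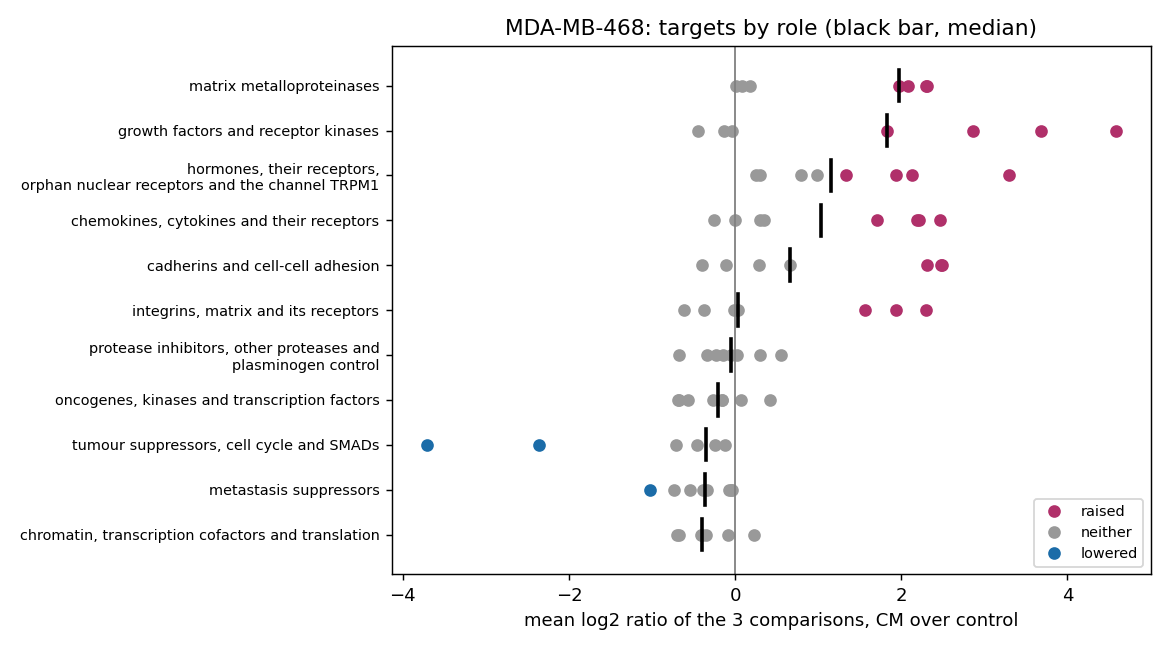
Mean log2 ratio of CM over control in MDA-MB-468 for 81 target genes (points), by role, with raised genes in red, lowered genes in blue and the median of each role, over all its genes, as a black bar. Matrix metalloproteinases and growth factors with receptor kinases have the highest medians, at ratios of 3.94 and 3.56.

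No gene was raised in the 4 lists of suppressors, oncogenes and chromatin genes, against 27.4% of all 84 genes, of which 3.57% were lowered. CD82, a tetraspanin that restrains cell motility, was lowered among 8 metastasis suppressors, with ratios of 0.737, 0.616 and 0.262. The list had a median geometric mean of 0.777, with median ratios of 1.13, 1.11 and 0.360 over controls 2, 3 and 4. The geometric mean of CD82, 0.492, lay just past the limit. CD82 was no longer called relative to GAPDH, ACTB or HPRT1 alone or without the comparison over control 4. The 8 tumor suppressors, cell cycle genes and SMADs had a median of 0.785 and held both other lowered genes. Their median ratios were 0.986, 1.08 and 0.434 over controls 2, 3 and 4. The 8 oncogenes, kinases and transcription factors had a median of 0.865, with 1.38, 0.933 and 0.474 over the same controls. The 7 genes of chromatin, transcription cofactors and translation had a median of 0.758, with 0.945, 1.11 and 0.404. Neither of these last lists held a call in either direction. In all 4 lists the median was lowest over control 4.

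RB1, the retinoblastoma tumor suppressor, had ratios of 0.106, 0.0819 and 0.0510, the lowest of any gene. SMAD4, which carries TGF-beta signals to the nucleus, had ratios of 0.281, 0.340 and 0.0776. Both genes are known to be lost in MDA-MB-468. In the 3 comparisons RB1 lay 16.7 to 19.2 times below the ratio of the reverse transcription control wells, and SMAD4 4.01 to 11.5 times below it. The level behind a ratio was not available in the values used. In MDA-MB-231, RB1 had ratios of 0.933, 0.849 and 0.904, and SMAD4 had ratios of 0.134, 0.265 and 0.0693. A low SMAD4 ratio was thus present in both lines, and a low RB1 ratio in MDA-MB-468. Since RB1 is known to be lost in MDA-MB-468, its ratios there are not read as a lowering by CM. An MDA-MB-231 control, as the headers name it, was not tested.

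Among 8 genes on the array listed as macrophage markers, 3 were raised (37.5%, near the 27.4% of all 84 genes), CCL7, IL1B and MMP9. That these genes are specific to macrophages was not tested. The list had a median geometric mean of 1.25. Its median ratio was 1.80, 1.70 and 0.663 over controls 2, 3 and 4. CST7 had ratios of 1.17, 1.35 and 0.570, and CTSL had ratios of 1.25, 1.63 and 0.520. SYK, a kinase of blood cells, had ratios of 0.751, 0.790 and 0.400. Their levels could not be read from ratios, and a part of macrophage RNA carried over with the medium was not tested.

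B2M, the light chain of class I histocompatibility molecules, is one of the 5 housekeeping genes of the array. In MDA-MB-468 its ratios were 5.75, 4.02 and 3.33 relative to the other 4, a mean log2 ratio of 2.09 ± 0.40 (SD, n = 3). In MDA-MB-231 they were 1.09, 0.987 and 0.762. The other housekeeping genes of MDA-MB-468, relative to the 4 reference genes, ranged from 0.872 to 1.10 for ACTB, 0.963 to 1.01 for GAPDH, 0.756 to 1.05 for HPRT1 and 1.08 to 1.24 for RPLP0. With B2M in the reference, as deposited, the median of the mean log2 ratios of the 84 genes was 0.42 lower, 22 genes were raised and 11 lowered. The comparison of B2M with its peers was a description without a test.

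Control wells were also read as ratios. The genomic DNA control had ratios of 2.30, 3.03 and 2.04 in MDA-MB-468, and of 1.75, 2.43 and 1.82 in MDA-MB-231. The 3 reverse transcription controls gave the same ratio in each comparison, 2.04, 1.36 and 0.895 in MDA-MB-468. The part of genomic DNA in the target ratios was not tested.

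When the comparisons were centered on the median of their 84 genes, an alternative chosen after seeing control 4, the median SD of a gene over the 3 comparisons fell from 0.75 to 0.21 on the log2 scale. The same 23 genes were raised and the same 3 lowered. Under this centering MCAM had log2 ratios of 2.35, 2.48 and 2.46, and CD82 of -0.91, -1.19 and -1.11. The SD of HGF fell from 1.47 to 0.74. In 8 of the 84 genes, 5 of them raised, the SD grew instead, from 0.31 to 0.66 for CDH11, 0.52 to 0.97 for IL1B and 0.39 to 0.65 for FLT4. Centering sets the middle gene of each comparison to no change and therefore says nothing about a shift shared by most genes.

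The ratios of MDA-MB-231 were set beside those of MDA-MB-468, with the line of the control unsettled as above. By the same rule 26 genes (31%) were raised and 3 (3.57%) lowered in MDA-MB-231. Since the headers give both lines the same controls, the calls of the lines may not be independent and are given side by side only. In 7 genes (8.33%) the lowest MDA-MB-468 ratio exceeded the highest MDA-MB-231 ratio, CDH11, FN1, IGF1, KISS1 and VEGFA among them. In 14 genes (16.7%) the order was the opposite, again without overlap, CXCR2, MMP10, SYK and RB1 among them. Without the comparison over control 4, 36 genes lay above and 14 below, so the first count rested on that comparison.

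With limma on the difference of the log2 ratios between the lines, also chosen after seeing the data, 11 genes (13.1%) passed an adjusted p of 0.05. The fit treats the 6 comparisons as independent, although the headers give the lines the same controls, and it too used a spread common to all genes. IGF1 had ratios of 4.78, 6.02 and 4.90 in MDA-MB-231, a log2 difference of 2.21 (95% interval 1.19 to 3.22, adjusted p = 0.00057). KISS1 had ratios of 2.11, 1.87 and 2.49 there, a log2 difference of 2.20 (95% interval 1.18 to 3.21, adjusted p = 0.00057). Both genes were raised in each line by the fold rule, with the higher ratios in MDA-MB-468. CDH11 had ratios of 1.27, 1.38 and 1.57 in MDA-MB-231, a log2 difference of 1.83 (adjusted p = 0.00615). FN1 had ratios of 0.730, 1.03 and 1.16, a log2 difference of 1.63 (adjusted p = 0.0157). Across 9 alternatives, among them a fit paired by control number, IGF1, KISS1, RB1 and SYK passed in each, while CXCR2 was lost in 1, CDH11 in 2, MMP10 in 3, HGF in 4, FN1 in 6 and VEGFA in 7.

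SYK, CXCR2 and MMP10 went the other way. SYK had ratios of 3.43, 2.44 and 3.39 in MDA-MB-231, a log2 difference of -2.30 (adjusted p = 0.000477). CXCR2, a receptor for chemokines that attract neutrophils, had ratios of 1.81, 1.82 and 0.565 in MDA-MB-468 and of 4.35, 5.08 and 4.67 in MDA-MB-231, a log2 difference of -1.93 (adjusted p = 0.00361). MMP10, a stromelysin, had ratios of 1.53, 1.48 and 0.642 in MDA-MB-468 and of 3.58, 3.95 and 3.84 in MDA-MB-231, a log2 difference of -1.74 (adjusted p = 0.00871). For MMP9 the lines differed by 0.05 on the log2 scale (95% interval -0.97 to 1.06), and for MMP2 by -0.26 (95% interval -1.28 to 0.75). Of the 11 genes, 4 to 7 passed when either control 2 or 3 of MDA-MB-468 or any comparison of MDA-MB-231 was left out, and 22 genes passed without control 4 of MDA-MB-468, all 11 among them. With all 5 housekeeping genes as reference 18 genes passed, 8 of the 11 among them, without FN1 and VEGFA. After centering on the median of the target genes 22 passed, all 11 among them.

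**Figure D4:**
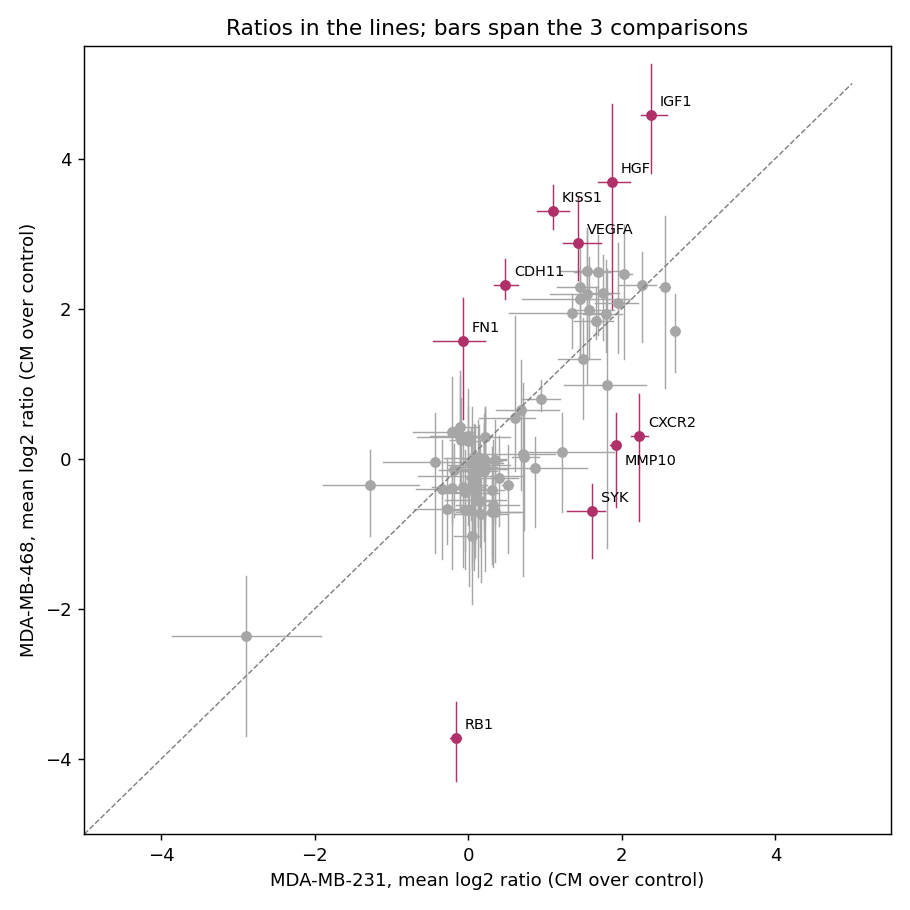
Mean log2 ratio of CM over control in MDA-MB-468 against MDA-MB-231 for 81 target genes, with bars from the lowest to the highest of the 3 comparisons and a dashed line of equal ratios. The 10 named genes in red passed limma's test of the difference between the lines at an adjusted p of 0.05.

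Promoter sequence is shown for raised genes that held a cyclic AMP response element (CRE, letters TGACGTCA) before their start, a textbook target of stimulus-responsive factors. The element was chosen from several after their counts were seen. Of the 23 raised genes 12, and of all 84 genes 58, were matched to RefSeq promoters of 300 bases (GRCh38.p14), and all letters were searched on both strands. The CRE letters occurred in 2 of the 12 raised and 2 of the 46 other genes, beside 1.85% of all 35116 promoters. The AP-1 letters TGACTCA occurred in 0 of the 12 and 5 of the 46, beside 4.95% of all promoters. With any middle base (TGANTCA, N any base), which includes the former, they occurred in 1 of the 12 and 7 of the 46, beside 7.71%. TATA box letters (TATAAA) were found in 3 of the 12 and 5 of the 46, beside 11.5%, and hypoxia element letters (ACGTG) in 2 and 15, beside 21.4%. The STAT-type letters TTCNNNGAA were found in 2 of the 12 and 3 of the 46, beside 7.66%, and GC box letters (GGGCGG) in 6 and 37, beside 45.0%. The stretches below run 5′ to 3′ on the strand of the gene and end at or before its start, with the CRE in capitals. FN1 lies at chr2:215436194-215436301 and MCAM at chr11:119317131-119317212, both on the minus strand.
FN1: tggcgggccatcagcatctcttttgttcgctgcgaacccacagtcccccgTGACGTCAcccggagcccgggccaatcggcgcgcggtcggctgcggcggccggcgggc
MCAM: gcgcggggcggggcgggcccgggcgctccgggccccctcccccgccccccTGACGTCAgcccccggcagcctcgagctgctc
The motif began 183 bases before the start of FN1 and 32 before that of MCAM. A match describes the letters in these windows and is not evidence of a bound factor.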

How the data were processed

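Real-time PCR was run by the authors on a metastasis array with SYBR Green, and threshold cycles were turned into ratios with GeneGlobe. The deposited ratio of each well is 1 CM sample over 1 control, relative to housekeeping genes (2 to the power of minus delta delta Ct). These numbered ratios were treated as measurements of single comparisons, although each is already a comparison made by the authors; the unnumbered fold change columns, the authors' own summary per line, were not used. Another 16 per-sample columns of threshold cycles matched no label and were not used, so no depth of detection is known.

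Log2 ratios were rescaled to the mean of ACTB, GAPDH, HPRT1 and RPLP0. Genes were called by fold, without a test, and genes that passed the call were named with every comparison, as were line markers, housekeeping genes and control wells. limma 3.58.1 in R 4.3.3, with Benjamini-Hochberg adjustment over 84 genes, was added after seeing the data. Within each fit its intervals had the same width for every gene, so its p-values rest on a spread common to all genes. They do not reflect a gene's own SD over the comparisons, such as 1.47 for HGF and 0.31 for KISS1. The spread between comparisons may be technical. An exact sign test on 3 comparisons cannot go below p = 0.25. A few target genes enter the counts and medians but are left unnamed and are not reported here singly. Scripts were tested on simulated data. Members and lists were chosen with earlier results of these data known.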

Additional observations from a re-analysis of the deposited data

Results flagged for a closer look

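Of the 11 genes whose ratios differed between MDA-MB-468 and MDA-MB-231 by limma's test of the difference, 10 are given. A different effect of CM and a control of another line cannot be told apart in them. For RB1, known to be lost in MDA-MB-468, the ratio is not read as an effect of CM. The log2 ratio was higher in MDA-MB-468 by 2.21 for IGF1, 2.20 for KISS1, 1.83 for CDH11, 1.81 for HGF, 1.63 for FN1 and 1.43 for VEGFA. For HGF the lines overlapped, with ratios of 26.4, 20.1 and 3.99 in MDA-MB-468 and of 4.32, 3.50 and 3.24 in MDA-MB-231. The difference, MDA-MB-468 minus MDA-MB-231, was -3.55 for RB1, -2.30 for SYK, -1.93 for CXCR2 and -1.74 for MMP10. Across the 9 alternatives VEGFA was lost in 7, FN1 in 6, HGF in 4, MMP10 in 3, CDH11 in 2 and CXCR2 in 1.

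DENR, a factor of translation, had only ratios below 1 in MDA-MB-468 and only ratios above 1 in MDA-MB-231, with a difference of -1.02 on the log2 scale that did not pass the correction (adjusted p = 0.277).

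The genomic DNA control well, which is outside the target genes, had a mean log2 ratio of 1.28 in MDA-MB-468, above the reference genes in all 3 comparisons. Its part in the target ratios was not tested.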

How the results depend on the processing

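The 23 raised genes were all called relative to RPLP0, GAPDH, ACTB or HPRT1 alone and after centering on the median; NR4A3 was lost with all 5 housekeeping genes, and NR4A3, FN1 and MMP2 when a ratio over 2 was required in every comparison. Leaving out each comparison gave 23 to 25 raised and 2 to 4 lowered genes, CDH1 and KISS1R being added without control 4. Lowered genes numbered 11 with all 5 housekeeping genes, against 3, and 20 by limma after centering, against 2 by limma without it. RB1 and SMAD4 were lowered throughout. Between the lines, 28 genes lay below with all 5 housekeeping genes and 22 above after centering. Leaving out comparisons of either line moved the genes above from 7 to 36 and those below from 14 to 19. The causes were not tested, beyond the settings' own construction. No paired analysis was possible because each deposited ratio within a line already joins 1 CM sample to 1 control. Between the lines, limma with the control number as a block, added after seeing the data, passed 9 genes, all among the 11. Deviations of same-numbered comparisons from their line's mean correlated across genes at -0.30, -0.06 and -0.23 for controls 2, 3 and 4. With 3 comparisons per line, these values do not settle whether the lines shared controls. The methods' t-test and the filters on threshold cycles were not run, since those columns matched no label. Without threshold cycles, what depth limits is unknown.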
